A study of Mus musculus with 8 samples.

Results

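Pdx1, Sox17, Hhex and Nkx6-1 are transcription factor genes used in the embryo to divide the common bud of the bile duct and the ventral pancreas. They were taken by gene symbol from the deposited table, where each had 1 row, so 4 of 31228 genes are described. RNA was sequenced from C57BL/6 mouse ducts: 1 library of extrahepatic bile duct epithelium, 1 of pancreatic duct epithelium, 3 of bile duct organoids and 3 of pancreatic duct organoids. The epithelia were dissected, minced, digested with collagenase IV and put straight into Trizol, with no sort for epithelial cells. Organoids, which are hollow cultures of epithelial cells in Matrigel, were grown in medium with EGF, R-spondin-1, Noggin, FGF10 and nicotinamide, at first also with Wnt3A and Y27632, and were taken after 3 to 4 passages. The labels name no treatment or genetic change in any group, no age, and no animal or pool behind a library, so the spread between organoids may be technical.

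In the embryo, SOX17 marks the biliary side of the common bud and PDX1 the pancreatic side, and cells that lose SOX17 there can turn to pancreatic tissue. HHEX is needed earlier, for the foregut endoderm to form the ventral pancreas, the liver and the bile ducts. NKX6-1 acts after PDX1, in pancreatic progenitors, and stays on in insulin-producing beta cells. In the adult, Pdx1 is also expressed by duodenal and antral epithelium and by islet cells, Sox17 by arterial endothelium, and Hhex by endothelium, hepatocytes, B cells and the somatostatin cells of the islet.

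Pdx1 was 5.50-fold higher in bile duct than in pancreatic duct epithelium, where 5 general epithelial genes were 2.95- to 6.18-fold higher too. All 6 organoids had more Pdx1 than either epithelium, at 12.2 to 27.4 FPKM, with groups that overlapped. Sox17 was highest in pancreatic duct epithelium and was below both epithelia in 5 of 6 organoids. No member passed the test between the organoid groups, adjusted over all genes. Nkx6-1 had 30 or more reads only in libraries of the pancreatic duct. Its organoid groups overlapped, with 5 reads in pancreatic duct organoid 3 and 6 reads in bile duct organoid 1.

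The stretches of RefSeq sequence before Pdx1 and Hhex are shown because these are the members that were higher in organoids than in epithelia. They end at the base before the first base of the gene in the deposited table, read 5′ to 3′ on the coding strand (+ strand for both), with CCAAT boxes and GC boxes (GGGCGG), on either strand, in capitals (GRCm38.p6, chr5:147269847-147269958 for Pdx1 and chr19:37434591-37434809 for Hhex).
Pdx1: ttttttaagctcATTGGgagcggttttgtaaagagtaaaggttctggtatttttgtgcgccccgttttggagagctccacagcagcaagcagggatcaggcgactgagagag
Hhex: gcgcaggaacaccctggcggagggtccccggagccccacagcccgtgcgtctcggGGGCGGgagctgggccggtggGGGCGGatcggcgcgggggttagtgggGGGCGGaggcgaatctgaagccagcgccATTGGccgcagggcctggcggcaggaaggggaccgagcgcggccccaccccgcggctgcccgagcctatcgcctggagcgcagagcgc
Each stretch held 1 CCAAT box on the reverse strand, starting 100 bases before the Pdx1 gene and 88 before the Hhex gene. These distances are from the gene starts in the deposited table. The RefSeq start sites lie further downstream, at 147270097 for Pdx1 and 37434841 for Hhex. The stretches leave out the bases between the deposited and the RefSeq start. Among 32851 mouse promoters cut to the same length, 15.2% held a CCAAT box at the length of the Pdx1 stretch and 30.9% at that of Hhex. GC boxes numbered 3 before Hhex, where 28.3% of promoters had any, and 0 before Pdx1. Neither stretch held TATAAA or the E-box CACGTG. Bases G and C made up 77.2% of the Hhex stretch and 48.2% of the Pdx1 stretch, against medians of 52.1% and 50% over all promoters. The RefSeq window of Nkx6-1 lies wholly inside the deposited gene, and none was found for Sox17.

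Values are FPKM, reads per length of exon and per depth of the library, as the authors deposited them. For 90.5% of genes, and for Hhex at an inferred exon length, the FPKM of all 8 libraries are whole numbers of reads (within 0.05) times a step of the library, and the steps imply 12876466 to 20828210 reads per library. Differences between libraries are given on the scale of log2(FPKM + 1) after FPKM were scaled between libraries, which understates the change of weakly expressed genes. The labelled tissue was checked with 15 duct and epithelial markers, all detected in all 8 libraries. Their share of all FPKM was 0.688% for the bile duct and 0.177% for the pancreatic duct epithelium, while organoids ranged from 1.90% to 3.54%. Both epithelia also held other cells. The 15 acinar genes took 5.84% of all FPKM in the bile duct sample and 12.6% in the pancreatic duct sample, and no organoid exceeded 0.00293%.

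**Figure D1:**
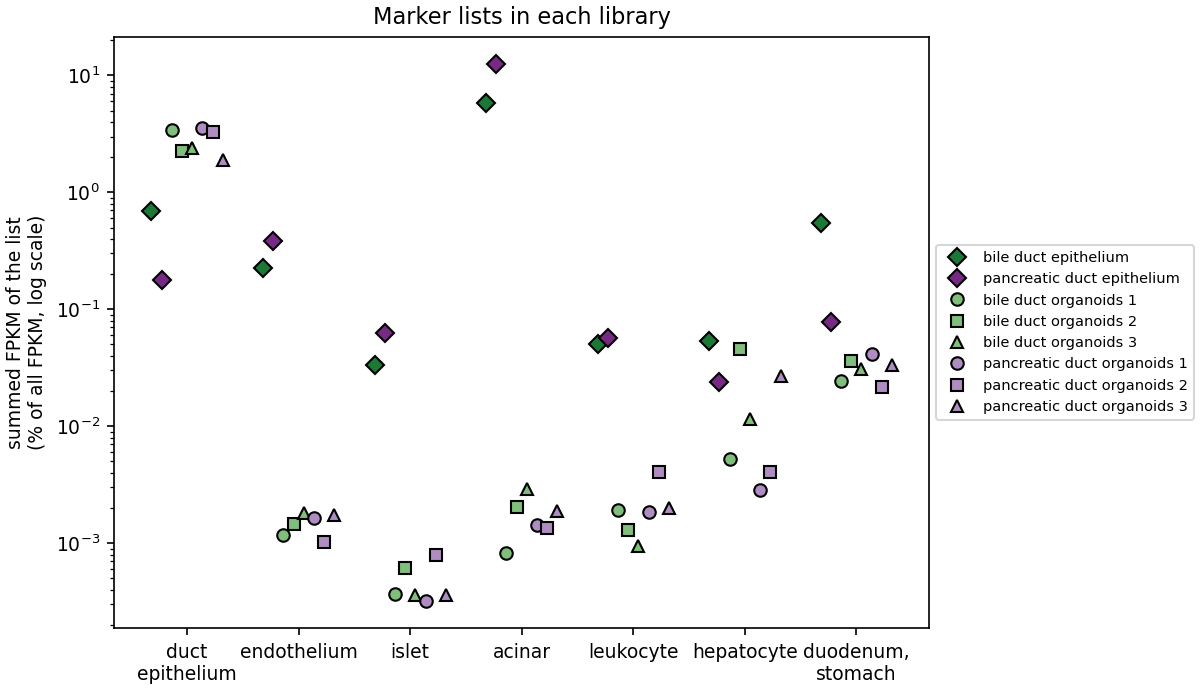
Summed FPKM of 7 marker lists as a percentage of all FPKM in each library, on a log axis. Diamonds are the single epithelia, circles, squares and triangles organoids 1, 2 and 3. The epithelia hold acinar (5.84% and 12.6%) and endothelial RNA (0.228% and 0.383%), and the organoids have at most 0.00293% and 0.00182%.

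Pdx1 (ENSMUSG00000029644, chromosome 5, 147269959 to 147275848, + strand, GRCm38) has 2158 bases of exon. It had 10.2 FPKM in bile duct epithelium and 1.86 FPKM in pancreatic duct epithelium. In bile duct organoids 1, 2 and 3 it had 12.2, 27.4 and 20.8 FPKM, and in pancreatic duct organoids 20.5, 13.9 and 19.1 FPKM. Pancreatic duct epithelium was the only library under 10 FPKM, all 6 organoids were above both epithelia, and the organoid groups overlapped. The counting interval of bile duct organoid 1 (11.1 to 13.3 FPKM) overlapped that of bile duct epithelium (9.07 to 11.5 FPKM). In rank, Pdx1 lay above 78.0% of detected genes in bile duct epithelium, above 48.6% in pancreatic duct epithelium and above 76.4% to 89.1% in the organoids.

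Hhex (ENSMUSG00000024986, chromosome 19, 37434810 to 37440731, + strand) encodes a homeodomain repressor. It had 4.90 FPKM in bile duct and 6.61 FPKM in pancreatic duct epithelium. Bile duct organoids had 8.81, 13.7 and 11.4 FPKM, and the values for pancreatic duct organoids were 12.8, 15.0 and 16.1 FPKM. Every organoid was above both epithelia, and bile duct organoid 2 overlapped the pancreatic duct group. The deposited values give whole reads at an exon length of 5754 bases. This length was inferred from the values and is close to that of the whole gene.

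Sox17 (ENSMUSG00000025902, chromosome 1, 4490931 to 4497354, − strand) encodes an HMG-box factor of the SoxF group. It had 4.98 FPKM in bile duct epithelium and 11.1 FPKM in pancreatic duct epithelium. Bile duct organoids had 6.00, 0.556 and 1.81 FPKM, and pancreatic duct organoids had 0.503, 2.35 and 1.06 FPKM. Bile duct organoid 1 was the only organoid above either epithelium, with 510 reads against 53 and 159 in the other cultures of its group. Sox17 was the most variable of the well-detected members between organoids, with a mean of 2.79 ± 2.85 FPKM in bile duct and 1.30 ± 0.946 FPKM in pancreatic duct organoids (SD, n = 3 each).

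Nkx6-1 (ENSMUSG00000035187, chromosome 5, 101658139 to 101664996, − strand) was close to the limit of detection in most libraries. It had 2 reads (0.0495 FPKM) in bile duct epithelium and 30 reads (0.619 FPKM) in pancreatic duct epithelium. In bile duct organoids it had 6, 0 and 0 reads, where 3 reads, taken as the limit that a count of 0 allows, would be 0.0478 FPKM in organoid 2 and 0.0520 FPKM in organoid 3. Pancreatic duct organoids had 36, 166 and 5 reads (0.745, 3.01 and 0.0765 FPKM). Organoid 2 of the pancreatic duct was thus the only library above 1 FPKM, and pancreatic duct organoid 3 fell below bile duct organoid 1 (0.107 FPKM), so the groups overlapped.

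The first comparison asked how the epithelia of the bile duct and the pancreatic duct differ. Pdx1, a defining pancreatic factor, was higher on the bile duct side and Sox17, the biliary factor, on the pancreatic side. With 1 library per organ there is no replicate check, and intervals cover counting error only. Pdx1 was 5.50-fold higher in bile duct epithelium, from 284 against 62 reads (95% exact interval 4.16 to 7.36). Sox17 was 2.24-fold higher in pancreatic duct epithelium (1.96 to 2.56, 306 against 821 reads). Hhex was 1.35-fold higher there (1.18 to 1.54, 363 against 588 reads), the smallest gap of the 4. Nkx6-1 was 12.5-fold higher there, but the 2 reads of bile duct epithelium leave an interval of 3.17 to 108.

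On the scale of log2(FPKM + 1) the differences, bile duct minus pancreatic duct epithelium, were 1.97 for Pdx1, -1.06 for Sox17, -0.40 for Hhex and -0.67 for Nkx6-1. Thus 1 member was at least 2-fold higher in bile duct, where 8.73% of the 15315 genes that reached 1 FPKM in an epithelium were, and 1 was at least 2-fold higher in pancreatic duct, where 4.54% were. Nkx6-1 did not reach 1 FPKM in an epithelium and is not among these genes.

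General epithelial genes differed between the epithelia in the same direction as Pdx1 and by a similar factor. Epcam, an epithelial adhesion molecule, was 5.48-fold higher in bile duct epithelium (5.15 to 5.83), and the keratin genes Krt8, Krt18 and Krt19 were 6.18-, 2.95- and 5.16-fold higher. Of the 15 duct and epithelial markers, 12 were at least 2-fold higher in bile duct epithelium and 1 was at least 2-fold higher in pancreatic duct epithelium, with a median log2 difference of 1.82 against -0.04 over all genes. Set against Epcam in the same library, a ratio chosen after the values were seen, Pdx1 was at 4.70% in the bile duct and 4.68% in the pancreatic duct sample. Divided by the fold of another epithelial gene, the Pdx1 fold came to 0.889 for Krt8, 1.07 for Krt19, 1.57 for Cdh1, which encodes E-cadherin, and 1.87 for Krt18, so near-equal ratios depend on the gene chosen. The ratio to Epcam for Hhex was 2.25% and 16.7%, and for Sox17 2.29% and 28.0%. In bulk RNA, fewer cells of a type and less RNA per cell cannot be told apart.

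The duodenum and stomach express Pdx1 as well, and genes of their lining were higher in bile duct epithelium. All 18 listed genes were detected there, with a summed 2200 FPKM against 306 FPKM in pancreatic duct epithelium, where 3 were at 0, and 13 of the 15 genes with at least 1 FPKM were at least 2-fold higher in bile duct. Fabp1, which encodes a fatty acid binding protein of enterocytes, had 165 and 6.79 FPKM, and Muc6, a mucin of gastric and Brunner glands, 190 and 0.615 FPKM. In organoids the list summed to 70.1 to 138 FPKM with 6 to 10 genes at 0. Most of that sum was Vil1, which encodes villin of the brush border, at 51.0 to 106 FPKM in organoids against 60.3 FPKM in bile duct epithelium. The mucosal peptide gene Tff2 had 2.11 to 14.3 FPKM in organoids against 1373 FPKM in bile duct epithelium, and Fabp1 at most 0.0905 FPKM. The part of such cells in the epithelial Pdx1 value was not tested.

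Between the epithelia, endothelial genes had the same direction as Sox17. All 16 endothelial markers were detected in both epithelia, with 920 summed FPKM in bile duct and 1499 FPKM in pancreatic duct epithelium, and a median log2 difference of -0.58. Pecam1, an adhesion molecule of endothelial cells, had 108 and 247 FPKM, and Plvap, a gene of fenestrated endothelium, 227 and 335 FPKM. The SoxF relatives of Sox17 that act with it in vessels had the same direction, Sox18 with 27.0 and 46.3 FPKM and Sox7 with 10.7 and 18.3 FPKM. In organoids the endothelial list summed to 3.35 to 5.84 FPKM, with 4 to 8 of its genes at 0, Erg and Cldn5 among them in all 6. Pecam1 had at most 0.0231 FPKM and Plvap at most 0.343 FPKM there, but Ptprb kept 0.640 to 3.07 FPKM, Egfl7 1.02 to 1.84 FPKM, Esam up to 1.36 FPKM and Flt1 up to 1.00 FPKM. Sox18 was at 0 in 5 organoids and 0.0593 FPKM in pancreatic duct organoid 3. The organoids with most Sox17, bile duct organoid 1 and pancreatic duct organoid 2, had the lowest endothelial sums, 3.81 and 3.35 FPKM against 4.71 to 5.84 FPKM in the other 4. Within the list, Ptprb had 1.49 and 0.640 FPKM in them against 1.73 to 3.07 FPKM. Flt1 went the other way, with 0.428 and 1.00 FPKM in these organoids against 0.0519 to 0.236 FPKM in the others, and Cdh5 was above 0 only in bile duct organoid 1 (0.0401 FPKM). Sox7, outside the list, had 1.51 FPKM in bile duct organoid 1 and 4.76 FPKM in pancreatic duct organoid 2. Each was the highest Sox7 value of its group, with 0.243 to 2.05 FPKM in the other organoids. The part of endothelial cells in the Sox17 values was not tested.

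Islet genes were also higher in pancreatic duct epithelium, the library with 30 Nkx6-1 reads. The 25 listed islet genes summed to 135 FPKM in bile duct and 245 FPKM in pancreatic duct epithelium, and Ins2, an insulin gene, had 16.9 and 77.6 FPKM. In organoids the list summed to 1.06 to 2.54 FPKM with 12 to 17 genes at 0. Pancreatic duct organoid 2, with 166 Nkx6-1 reads, had the highest list sum of the organoids (2.54 FPKM) and the fewest listed genes at 0 (12). It had 0.0433 FPKM of Ins2 and 0.854 FPKM of Sst, which were at 0 in the other organoids. Ins1, Gcg and Ppy were at 0 in all 6 organoids. The leukocyte list, with B cell genes, summed to 203 FPKM in bile duct and 222 FPKM in pancreatic duct epithelium and the hepatocyte list to 219 and 93.9 FPKM. Their part in the epithelial Hhex values was not tested.

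The second comparison set the organoid groups against each other, where both sides had 3 libraries. No member passed the adjusted test. Pdx1 had close means, Hhex had a lower mean in bile duct organoids, Sox17 varied more within a group than between groups, and Nkx6-1 was detected mainly on the pancreatic side. The test was limma over the 12094 genes that reached 1 FPKM in 3 or more organoids, and 0 genes (0%) passed a Benjamini-Hochberg adjusted p of 0.05. Without adjustment 311 genes (2.57%) had a p under 0.05, and limma's voom on the recovered reads called 1 gene at the adjusted threshold, which was no member. Without pancreatic duct organoid 3, limma called 11 genes, again no member.

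Pdx1 had 20.1 ± 7.61 FPKM in bile duct and 17.8 ± 3.50 FPKM in pancreatic duct organoids (SD, n = 3 each). The log2 difference, bile duct minus pancreatic duct organoids, was 0.10 (95% interval -0.58 to 0.78, limma adjusted p = 1.00), and its sign turned without bile duct organoid 2 (-0.13) or without pancreatic duct organoid 2 (-0.0472). Hhex had 11.3 ± 2.43 FPKM in bile duct and 14.6 ± 1.69 FPKM in pancreatic duct organoids (SD, n = 3 each). Its difference of -0.37 (-0.75 to -0.00171) had an unadjusted p of 0.0492 and an adjusted p of 1.00 in limma, so it did not pass correction, and the exact two-sided permutation p was 0.2 where 0.1 is the smallest possible. Sox17 differed by 0.52 (-0.95 to 1.99, limma adjusted p = 1.00), and without bile duct organoid 1 by -0.0882.

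Nkx6-1 did not pass the filter and was tested only with all detected genes included. Its difference was -0.93 (-2.11 to 0.24, limma unadjusted p = 0.0993 and adjusted p = 0.986), with an exact two-sided permutation p of 0.2. The means were 0.0358 ± 0.0620 FPKM in bile duct and 1.28 ± 1.54 FPKM in pancreatic duct organoids (SD, n = 3 each). The groups overlapped for all 4 members, while 6.69% of the 12094 genes had groups that did not overlap.

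**Figure D2:**
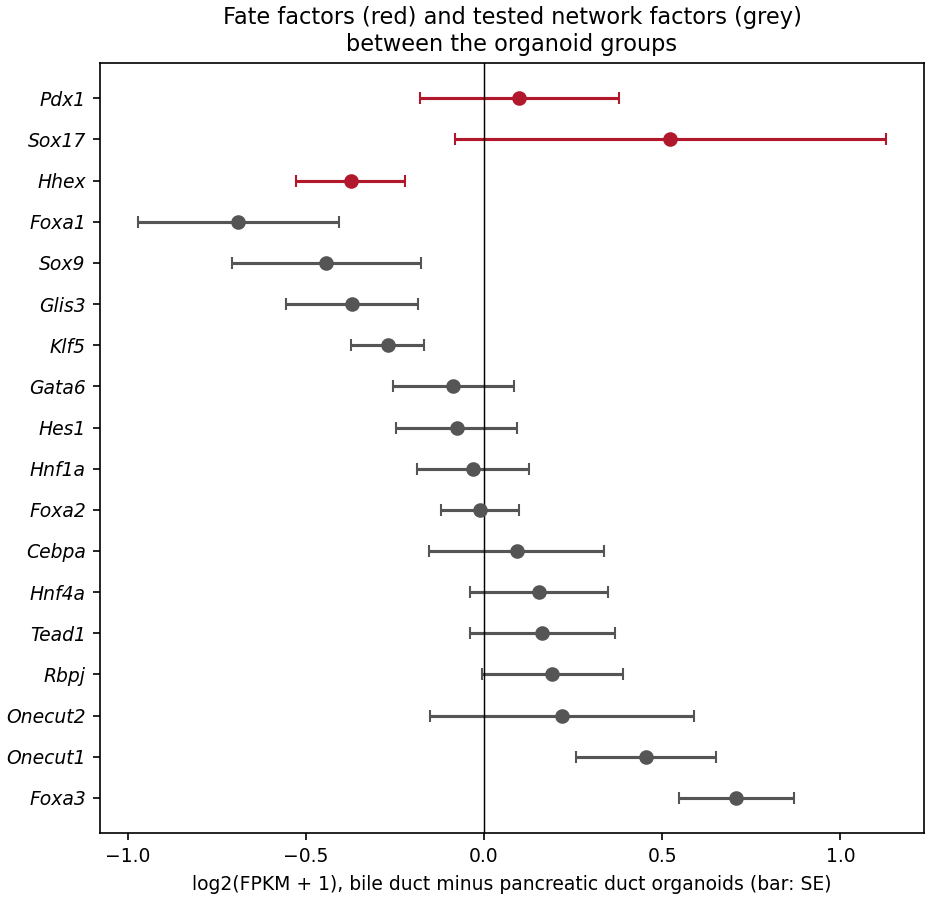
Difference of log2(FPKM + 1), bile duct minus pancreatic duct organoids, for the tested fate factors (red) and 15 of the 16 tested genes of the wider network (grey). Points are limma estimates from 3 against 3 organoids and bars their SE. Pdx1 lies at 0.10 and Hhex at -0.37, and no gene shown passed the adjusted threshold.

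Pdx1 and Sox17 had opposite orders among the organoids. In bile duct organoids Pdx1 rose in the order of organoids 1, 3 and 2 while Sox17 fell in that order, and in pancreatic duct organoids Pdx1 rose in the order 2, 3 and 1 while Sox17 fell. The ratio of Pdx1 to Sox17 FPKM ran from 2.03 in bile duct organoid 1 to 49.2 in bile duct organoid 2, and from 5.92 to 40.8 in pancreatic duct organoids, against 2.05 in the bile duct and 0.167 in the pancreatic duct epithelium. Over the 6 organoids Pearson's r was -0.88 (exact permutation p = 0.0167, adjusted p = 0.1 over the 6 pairs of members) and Spearman's rho was -0.89 (exact permutation p = 0.0333, adjusted p = 0.2), so the relation did not pass correction. Without bile duct organoids 1 and 2, the farthest from the Pdx1 median, r was -0.78, and groups of 3 are too small for a coefficient of their own.

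The pair was looked at because of these values. Bile duct organoid 1 and pancreatic duct organoid 2, the cultures with least Pdx1 and most Sox17, also deviated from their group means together across genes (r = 0.649 over the genes tested). Their Epcam was higher than in the other 4 organoids, with 1003 and 788 FPKM against 357 to 433 FPKM. The part of this shared deviation in the Pdx1 and Sox17 values was not tested.

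**Figure D3:**
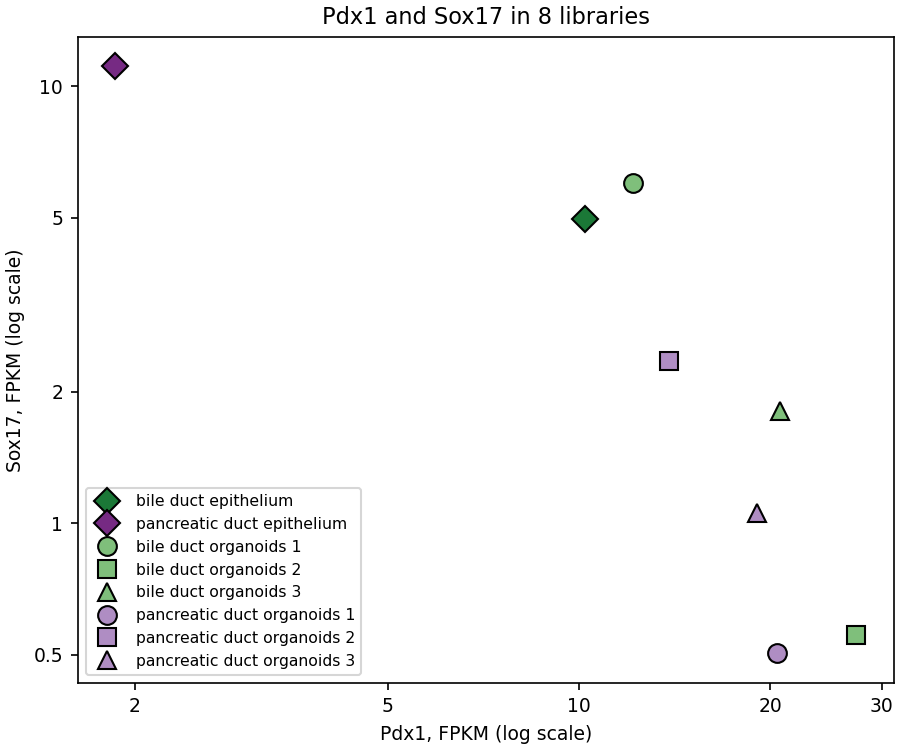
Sox17 against Pdx1 FPKM in the 8 libraries, both axes logarithmic. Pancreatic duct epithelium stands at 1.86 FPKM of Pdx1 and 11.1 FPKM of Sox17, at the far end from bile duct organoid 2 (27.4 and 0.556 FPKM) and pancreatic duct organoid 1 (20.5 and 0.503 FPKM).

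The third comparison was from epithelium to organoid. Pdx1 and Hhex rose and Sox17 fell, with larger values for Pdx1 and Sox17 in the pancreatic duct. Markers of cell types moved as well, as given after the values of the members. In the pancreatic duct, Pdx1 changed by 2.60 ± 0.27 and Sox17 by -2.60 ± 0.58 on the log2 scale, in the bile duct by 0.73 ± 0.50 and -1.02 ± 1.13 (SD over 3 organoids, each against the 1 epithelium of its organ). The bile duct value of Pdx1 was 0.44 with scaling over genes above 1 FPKM and 0.50 without bile duct organoid 2. Hhex changed by 0.94 ± 0.24 in the bile duct and 0.90 ± 0.12 in the pancreatic duct. Nkx6-1 changed by -0.02 ± 0.09 in the bile duct and 0.23 ± 0.96 in the pancreatic duct, with organoid 2 above and organoid 3 below the epithelium.

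A change of at least 2-fold with all 3 organoids on one side was reached in the pancreatic duct by Pdx1, higher as were 17.6% of genes, and by Sox17, lower as were 23.5%. In the bile duct 0 members reached it, where 15.2% of genes were higher and 24.3% lower. Hhex passed 1 in the bile duct with FPKM as deposited (1.04), with a pseudocount of 0.1 (1.05) and without bile duct organoid 1 (1.05), and in the pancreatic duct with FPKM as deposited (1.03). Sox17 in the bile duct was at -1.63 without bile duct organoid 1, with both others lower, and at -0.51 without bile duct organoid 2. In a limma fit over all 8 libraries with the organ as a term, organoids were higher by 1.66 for Pdx1 (SE 0.44, adjusted p = 0.0143) and by 0.92 for Hhex (SE 0.14, adjusted p = 0.00130), and Sox17 fell by 1.81 (SE 0.64, adjusted p = 0.0439). That fit called 32.5% of 14967 genes higher and 26.9% lower in organoids, or 8898 genes in all, beside 3 of 3 tested members. It assumes one common change in both organs and one spread in epithelia and organoids, and a difference in change between the organs was not tested. Sox17 lost its call with a pseudocount of 0.1 (adjusted p = 0.0595) and with no filter (adjusted p = 0.0703). Leaving out single organoids gave it adjusted p-values of 0.00505 to 0.0763, and it kept its call only without bile duct organoid 1.

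In the same fit 11 of 15 duct and epithelial markers were higher in organoids, with a median of 2.36 over the list, and Epcam rose by 2.34 (SE 0.65, limma adjusted p = 0.0175). Relative to Epcam, Pdx1 stood at 4.70% and 4.68% in the epithelia and at 1.21% to 6.69% in the organoids. All 16 endothelial markers fell (median -5.45), as did all 15 acinar, all 13 tested islet and all 13 tested leukocyte markers (median -3.74 for the last). Of the hepatocyte list 3 of 5 tested genes fell and 2 did not pass, and of the duodenum and stomach list 6 of 8 fell and 2, Vil1 and Cdx2, rose. The part of these cell types in the changes of Pdx1, Hhex and Sox17 was not tested.

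The neighbours of Pdx1 on chromosome 5 were examined because Pdx1 belongs to the ParaHox cluster, a set of homeobox genes next to each other in the genome. Plut (ENSMUSG00000092570, 147228596 to 147271521, − strand), a noncoding RNA antisense to Pdx1, overlaps 1563 bases of the gene, though 0 bases of its exons in GENCODE M21. Its epithelial values were 2.78 FPKM in bile duct and 0.469 FPKM in pancreatic duct, a 5.92-fold gap (3.37 to 11.1) like that of Pdx1. Plut was at 27.2% of Pdx1 FPKM in bile duct epithelium, at 25.2% in pancreatic duct epithelium and at 10.7% to 22.8% in organoids. In organoids it ran from 1.52 to 4.73 FPKM without a group difference (0.13, SE 0.32, limma adjusted p = 1.00), and the sign turned without bile duct organoid 3 (-0.0938). Whether counting used strand is not given in the sources used here, and 428 bases of Plut exon lie within the Pdx1 gene, so reads of the antisense pair cannot be told apart there.

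Cdx2, the intestinal member of the cluster, lies 24957 bases beyond Pdx1. It had 4.84 FPKM in bile duct epithelium and 0.114 FPKM in pancreatic duct epithelium, from 141 and 4 reads. Bile duct organoids had 6.93, 7.06 and 17.3 FPKM and those of the pancreatic duct 20.7, 4.45 and 15.4 FPKM, so that 5 of 6 organoids were above both epithelia. The fit with organ as a term gave a rise of 2.09 (SE 0.74, limma adjusted p = 0.0446). That call was lost with no filter (adjusted p = 0.0703), with scaling over genes above 1 FPKM (0.0668) and without bile duct organoid 3 (0.0783), pancreatic duct organoid 1 (0.0632) or pancreatic duct organoid 3 (0.0762). Between Pdx1 and Cdx2, the noncoding RNA Gm27033 had 4.28 FPKM in the bile duct sample, 0.951 FPKM in the pancreatic duct sample and 3.97 to 8.09 FPKM in organoids. Pancreatic duct epithelium was the lowest library for Pdx1, Plut, Gm27033 and Cdx2 alike. The other neighbours of Pdx1 within 60 kb, Urad, Flt3 and Mir7k, had at most 4, 30 and 4 reads in a library. Those of Sox17 (Gm22307, Gm7357 and Gm37587, which overlaps 804 bases of Sox17) and of Nkx6-1 (Gm43270) had at most 0.605 FPKM. Beside Hhex stood Kif11, a mitotic motor, with 1.02 to 2.87 FPKM in epithelia and 5.36 to 12.4 FPKM in organoids, and Gm38345, 154 bases away, at 0 in both epithelia and at 0.315 to 0.546 FPKM in organoids.

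**Figure D4:**
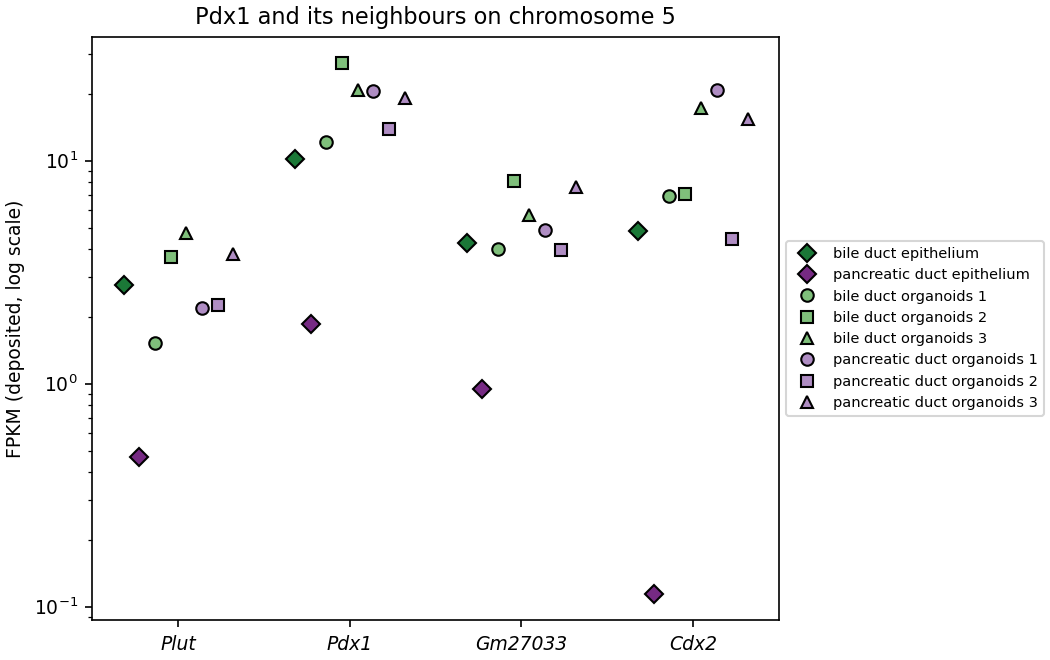
Deposited FPKM, on a log axis, of Plut, Pdx1, Gm27033 and Cdx2 in the order of their position on chromosome 5. Diamonds are the epithelia and other symbols organoids 1 to 3. Pancreatic duct epithelium is lowest for each gene, at 0.469, 1.86, 0.951 and 0.114 FPKM.

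Of the other relatives, Nkx6-2, Nkx6-3, Cdx1 and Cdx4 had at most 0.194 FPKM in any organoid, and Gsx1 and Gsx2 had no row. Sox7 was the only SoxF relative of Sox17 with an appreciable level in organoids, at 1.51, 0.243 and 0.247 FPKM in cultures of the bile duct and 0.492, 4.76 and 2.05 FPKM in pancreatic duct organoids. It fell from epithelium to organoid by 2.90 (SE 0.51, limma adjusted p = 0.00233).

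Of the wider network of 23 foregut, bile duct and pancreas factors, 21 were tested between organoids and epithelia. Of these 9 (42.9%) were higher and 5 (23.8%) lower in organoids, against 32.5% and 26.9% over all genes, with a median of 0.43 against 0.11 over all genes. Foxa2, a pioneer factor of the endoderm, rose by 2.54 (SE 0.30, limma adjusted p = 0.000352), and Sox9, a factor of duct cells, rose by 2.28 (SE 0.37, limma adjusted p = 0.00152). Hnf4a, a factor of liver and gut epithelium, rose by 2.77 (SE 0.52, limma adjusted p = 0.00323). Prox1, needed for liver and pancreas growth and also expressed in lymphatic endothelium, fell by 1.93 (SE 0.45, limma adjusted p = 0.00888). Ptf1a and Rbpjl encode partners that drive acinar genes. Ptf1a had 0.257 and 0.729 FPKM in the epithelia and was at 0 in all 6 organoids, and Rbpjl fell by 2.43. Between the organoid groups 0 of 16 tested factors passed the adjusted threshold, 3 had an unadjusted p under 0.05 (2.57% over all genes), and 4 (25%) had groups that did not overlap (6.69% over all genes). The 4 were Foxa3, higher in bile duct organoids (0.71, SE 0.16), Onecut1, higher there (0.45, SE 0.20), Foxa1, lower there (-0.69, SE 0.28), and Klf5, lower there (-0.27, SE 0.10), each with a limma adjusted p of 1.00. Without bile duct organoid 2 the values were 0.28 for Onecut1 and -0.39 for Foxa1, and with voom 0.71 and -1.16.

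Gata4, which with Gata6 is needed to form the pancreas, was near 0 in bile duct organoids, as Nkx6-1 was. It had 0, 3 and 8 reads in bile duct organoids against 241, 335 and 61 reads in pancreatic duct organoids (4.01, 4.88 and 0.750 FPKM). The groups did not overlap. Gata4 did not pass the filter, and with all detected genes included its difference was -1.84 (SE 0.49, limma unadjusted p = 0.0102, adjusted p = 0.986), with an exact two-sided permutation p of 0.1, the smallest possible. In the epithelia the direction was the opposite, with 4.32 FPKM in bile duct and 1.14 FPKM in pancreatic duct, and whether the direction differs between epithelia and organoids was not tested.

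The genes whose pattern over the 8 libraries was most like that of a member were found by Pearson's r of scaled log2(FPKM + 1) among 9842 protein-coding genes with at least 5 FPKM in a library (9843 for Nkx6-1). For Pdx1 these were Coa4, Gsr, Ggt6 and Acnat1 (r from 0.989 to 0.994). For Sox17 they were Bex4, Tmem123, Ier3ip1 and Cuedc2 (0.955 to 0.977), and for Hhex Klhdc3, Zfp740 and Med17 (0.965 to 0.977). For Nkx6-1, with its single library above 1 FPKM, they were Tsc2, Clcn7, Glis2 and Plbd2 (0.909 to 0.963). The 8 points share depth and scaling, and the coefficients are a description. Bex4 followed the unusual Sox17 value of bile duct organoid 1, with 5.37 FPKM there against 0.233 to 1.49 FPKM in the other organoids.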

How the data were processed

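The 8 libraries were grouped by their titles. The authors deposited FPKM in 1 table; the unit is not named in the header and was read from the values. Per the submitters' processing notes, Bowtie2 2.2.3, HISAT2 2.1.0, TopHat2 and HTSeq 0.6.0 were used; their roles, the build and the strand setting are not given in the sources used here. Multiplied by GENCODE M21 exon length, FPKM gave whole reads (within 0.05) in all libraries for 90.5% of genes; for Hhex and 13 other listed genes the length at which reads were whole was used. All per-sample columns were used (0 left aside). FPKM were scaled by a trimmed mean of log ratios (30% and 5% trimmed), which lowers organoids against epithelia by 0.13 log2 relative to deposited values. limma 3.58.1 in R 4.3.3 tested log2(FPKM + 1) with an intensity trend, and p-values were adjusted over all genes. Counting intervals are exact, at 95%, and cover counting error only. The members, gene lists and comparisons were chosen with earlier results of these data known. The naming rule takes all members, their neighbours within 60 kb, the 4 genes most like each member, the 4 most abundant genes of each list, and any network factor or relative; not all of these are printed, and 1 network factor and 1 gene most like Hhex are not reported here. Of the genes named outside it, and of those it allows, the selection was made after their values were seen. The limma fits were tested on simulated data. Alternatives covered scaling, pseudocount, filter, replicate block, voom and leaving out organoids. Same-numbered organoids did not all deviate together, so the number was not treated as a pairing. Tables used Python 3.11.15 with pandas 2.3.3.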

Additional observations from a re-analysis of the deposited data

How the results depend on the processing

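With FPKM as deposited, another pseudocount, no filter or the replicate block, limma called 0 genes between the organoid groups; with voom it called 1, and without single organoids 0 to 11. Without single organoids the differences ran from -0.13 to 0.37 for Pdx1 and from -0.0882 to 1.04 for Sox17. With the replicate number as a block they were 0.10 for Pdx1, 0.52 for Sox17 and -0.37 for Hhex, with no call. Same-numbered organoids correlated at -0.103, -0.440 and 0.483 in their deviations from the group means.

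In the fit of organoids against epithelia Sox17 lost its call with a pseudocount of 0.1 (-2.43), with no filter (-1.81) and without any single organoid but bile duct organoid 1; over all 6 such fits it ran from -2.14, without that organoid, to -1.62. Plut between the organoid groups ran from -0.0938, without bile duct organoid 3, to 0.45. Of the genes called between organoids and epithelia 54.7% were higher in organoids, 40.8% with no filter and 39.4% with scaling over genes above 1 FPKM, a choice added after the data were seen that lowers organoids by 0.43 log2 against deposited values; Pdx1 and Hhex kept their direction and call in every alternative run. A minimum of 10 FPKM left 862 of 2032 genes apart between the epithelia, and 2990 of 6050 and 3198 of 6200 changed from epithelium to organoid in bile duct and pancreatic duct, since fewer genes are tested. In bile duct, Hhex rose by 0.67 and Pdx1 by 0.44 with the added scaling. In pancreatic duct it rose by 0.64 with that scaling and 1.03 with FPKM as deposited, and with a pseudocount of 0.1 Pdx1 changed by 3.03 and Sox17 by -3.38. The cause was not tested. Depth limits Nkx6-1 most, at 0 to 6 reads in bile duct libraries.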

Other observations

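Genes of the signals around the embryonic bud were read as well. Fgf10, whose product the culture medium supplied, had 0.658 FPKM in the bile duct sample, 1.27 FPKM in the pancreatic duct sample and was at 0 in all 6 organoids, while its receptor gene Fgfr2 had 5.07 to 17.8 FPKM in organoids. Of 13 tested signal genes, 2 were higher and 5 lower in organoids than in epithelia by limma, where 32.5% and 26.9% of all genes were. Notch2 rose by 0.47 (SE 0.09, limma adjusted p = 0.00375), a call lost with scaling over genes above 1 FPKM (adjusted p = 0.0963), and Dll1, a Notch ligand gene, fell by 2.05 (SE 0.19, limma adjusted p = 9.2e-05). Between the organoid groups 0 of 12 tested signal genes passed the adjusted or the unadjusted threshold in limma.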
